A study of Rattus norvegicus with 6 samples.

Results

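Voltage-gated calcium channels open when the membrane of an excitable cell is depolarized and let calcium into the cell, where it triggers transmitter release, shapes firing and drives calcium-dependent transcription. Many of these channels consist of a pore-forming α1 subunit, an intracellular β subunit and an α2δ subunit that promotes transport of the channel to the membrane. In the dorsal horn of the spinal cord, N-type channels at the central terminals of nociceptors are blocked by the intrathecal analgesic ziconotide, and the α2δ-1 and α2δ-2 subunits bind gabapentin and pregabalin.

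The expression of 10 genes of this family was examined, the 8 α1 genes Cacna1a, Cacna1b, Cacna1c, Cacna1d, Cacna1e, Cacna1g, Cacna1h and Cacna1i and the α2δ genes Cacna2d1 and Cacna2d2. They were picked out of the table by gene name, from a list drawn up with earlier results of these data known, each matched 1 row among the 30957 listed genes, and all 10 were among the 14908 genes with enough counts to be tested. The libraries came from the ipsilateral lumbar enlargement of adult female Wistar rats on day 14 after surgery, 3 from rats with bone cancer pain (BCP) and 3 from sham-operated rats. BCP rats carried living Walker 256 cells, a rat mammary carcinoma line, in the marrow cavity of the left tibia, and sham-operated rats had received the same kind of cells after killing by heat, so that both groups had undergone surgery and cell injection. RNA was depleted of ribosomal RNA and sequenced with a strand-specific kit. The labels did not give the age of the rats, a batch, or whether each library came from a separate rat, so p-values measure only the spread between these libraries.

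Between 11779485 and 15004290 counts on genes were available per library, and the channel genes had between 513 and 3541 counts each in a library. Libraries of 1 group varied more than counting alone allows (chi-square divided by its degrees of freedom, 3.48 to 6.04 over the pairs). The tissue label was checked against defining markers. All 15 genes of a neuron list and all 9 of an oligodendrocyte list had enough counts to be tested. Of 10 genes of dorsal root ganglion neurons 5 had enough, with mean sham levels of 173 CPM for Prph, 4.90 for Trpv1, 4.11 for Avil, 1.59 for P2rx3 and 1.12 for Isl2, and the other 5, Mrgprd and Scn10a among them, stayed below 1 CPM on average in both groups. This tissue holds neurons, glia and vessels together, and in such bulk samples fewer cells of a type and less RNA per cell cannot be told apart.

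Levels were compared between genes per exon length, as FPKM, the deposited fragment counts scaled by exon length and library total. In the sham libraries Cacna1a, the P/Q-type α1 gene of presynaptic terminals, stood at 26.1 ± 0.831 FPKM and Cacna2d2 at 26.1 ± 1.17 FPKM (SD, n = 3), and the libraries of these genes overlapped. Cacna1e followed with 21.8 ± 1.91 FPKM and Cacna2d1 with 16.5 ± 0.703 FPKM, each without overlap with the gene above it. Cacna1b, Cacna1g and Cacna1i lay close together at 11.5 ± 1.61, 11.4 ± 0.663 and 11.1 ± 0.304 FPKM, and their libraries overlapped. The lowest levels belonged to Cacna1d with 7.39 ± 0.326 FPKM, Cacna1c with 7.32 ± 0.422 FPKM and Cacna1h with 6.45 ± 0.525 FPKM, where Cacna1d and Cacna1c overlapped and Cacna1h lay below Cacna1c in all sham libraries.

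In the BCP libraries the order was nearly the same. Cacna2d2, at 23.8 ± 0.665 FPKM, stood above Cacna1a, at 22.2 ± 0.473 FPKM, without overlap, and Cacna1e, at 19.3 ± 1.87 FPKM, overlapped with Cacna2d1, at 16.3 ± 1.15 FPKM (SD, n = 3). Cacna1c, at 6.49 ± 0.110 FPKM, and Cacna1d, at 5.95 ± 0.481 FPKM, changed places within overlapping ranges. Cacna1h had the lowest mean, 5.28 ± 0.550 FPKM, and overlapped with Cacna1d.

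**Figure D1:**
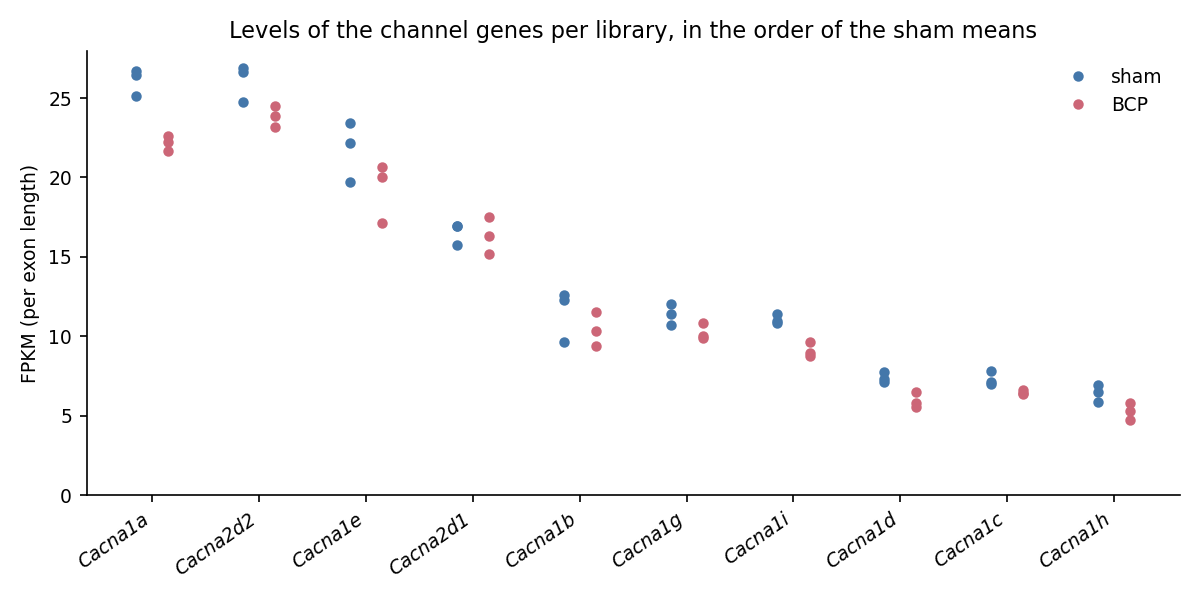
FPKM (vertical axis, per exon length) of the 10 channel genes in each of the 3 sham libraries (blue) and 3 BCP libraries (red), 1 point per library, in the order of the sham means. Cacna1a and Cacna2d2 lie near 26.1 FPKM in the sham libraries, and Cacna1h has the lowest mean in both groups, with BCP libraries that overlap those of Cacna1d.

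RefSeq promoter windows of assembly GRCr8, which reach from 250 bases before to 50 bases after an annotated start, were matched by symbol for 7 of the 10 genes. The 3 windows printed here belong to the channel gene with the largest drop between the groups (Cacna1d), to the α1 gene with the highest level (Cacna1a) and to the gabapentinoid target Cacna2d1, whose groups overlapped. Each is written on the strand of the gene, with capitals marking every match of GGGCGG, a GC box, on either strand; overlapping matches were counted separately.
Cacna1d, chr16:5527500-5527799, minus strand: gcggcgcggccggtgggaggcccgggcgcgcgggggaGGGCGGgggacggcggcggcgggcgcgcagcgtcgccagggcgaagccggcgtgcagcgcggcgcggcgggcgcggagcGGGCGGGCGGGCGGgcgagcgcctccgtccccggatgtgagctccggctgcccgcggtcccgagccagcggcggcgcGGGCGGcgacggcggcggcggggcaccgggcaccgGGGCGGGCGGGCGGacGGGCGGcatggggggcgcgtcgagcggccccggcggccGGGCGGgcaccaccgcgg
Cacna1a, chr19:40650419-40650718, minus strand: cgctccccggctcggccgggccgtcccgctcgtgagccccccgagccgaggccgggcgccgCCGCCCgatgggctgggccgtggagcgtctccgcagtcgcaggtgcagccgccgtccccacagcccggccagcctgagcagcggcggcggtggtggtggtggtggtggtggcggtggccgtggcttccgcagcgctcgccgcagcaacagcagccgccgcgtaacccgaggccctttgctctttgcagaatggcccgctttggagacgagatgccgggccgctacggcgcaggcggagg
Cacna2d1, chr4:20330098-20330397, minus strand: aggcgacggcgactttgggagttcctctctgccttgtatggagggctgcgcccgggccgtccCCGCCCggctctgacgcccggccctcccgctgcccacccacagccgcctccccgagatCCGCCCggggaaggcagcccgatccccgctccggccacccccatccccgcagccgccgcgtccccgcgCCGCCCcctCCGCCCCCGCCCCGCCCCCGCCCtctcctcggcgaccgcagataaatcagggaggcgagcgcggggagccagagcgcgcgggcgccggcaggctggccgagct

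The Cacna1d window held 10 GC boxes at a GC content of 88.7%, the Cacna1a window 1 at 76.0% and the Cacna2d1 window 7 at 78.3%. The other windows listed for Cacna2d1 held 3 each. Over all 33469 windows of the table the median GC content was 51.7%, and 33.1% held at least 1 GC box. A GC box was found for 5 of the 7 genes with a window, and not in the windows of Cacna1c, at 51.7% GC, and Cacna1e, at 53.7% GC. None of the 9 windows of these genes held TATAAA, found in 14.2% of all windows, or the cyclic AMP response element TGACGTCA, found in 1.83%, on either strand.

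Expression in BCP and sham rats was compared by fitting the counts with edgeR's quasi-likelihood test. Levels in this comparison are CPM, counts per 1000000 counts of the TMM-scaled library, which are not divided by length, and log2FC denotes the log2 fold change of BCP against sham. Adjusted p-values are Benjamini-Hochberg values over all 14908 genes from that test. A gene was said to rise or fall when its adjusted p was under 0.05.

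By this test 7 of the 10 channel genes fell and none rose, whereas none passed when the counts were scaled to neuron markers instead. Among all tested genes 12.1% were lower and 15.8% higher in BCP by the same test, and 1.13% lower and 35% higher with scaling to the neuron markers. None of the 10 genes passed the fold change over 2 that the study also required, with 0.107% of all genes lower and 6.35% higher by that rule, and DESeq2 gave none either. No gene of the 10 was higher at an unadjusted p under 0.05, and 8 were lower. The share of all tested genes at that unadjusted cut was not computed, so this count cannot be set against it. DESeq2 put 8 below, Cacna1e in addition, with 8.19% of all genes lower. All log2FC of the channel genes lay between -0.35 and -0.06, with a median of -0.22 against -0.01 for all tested genes. The standard errors ran from 0.05 for Cacna1a to 0.13 for Cacna1b.

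**Figure D2:**
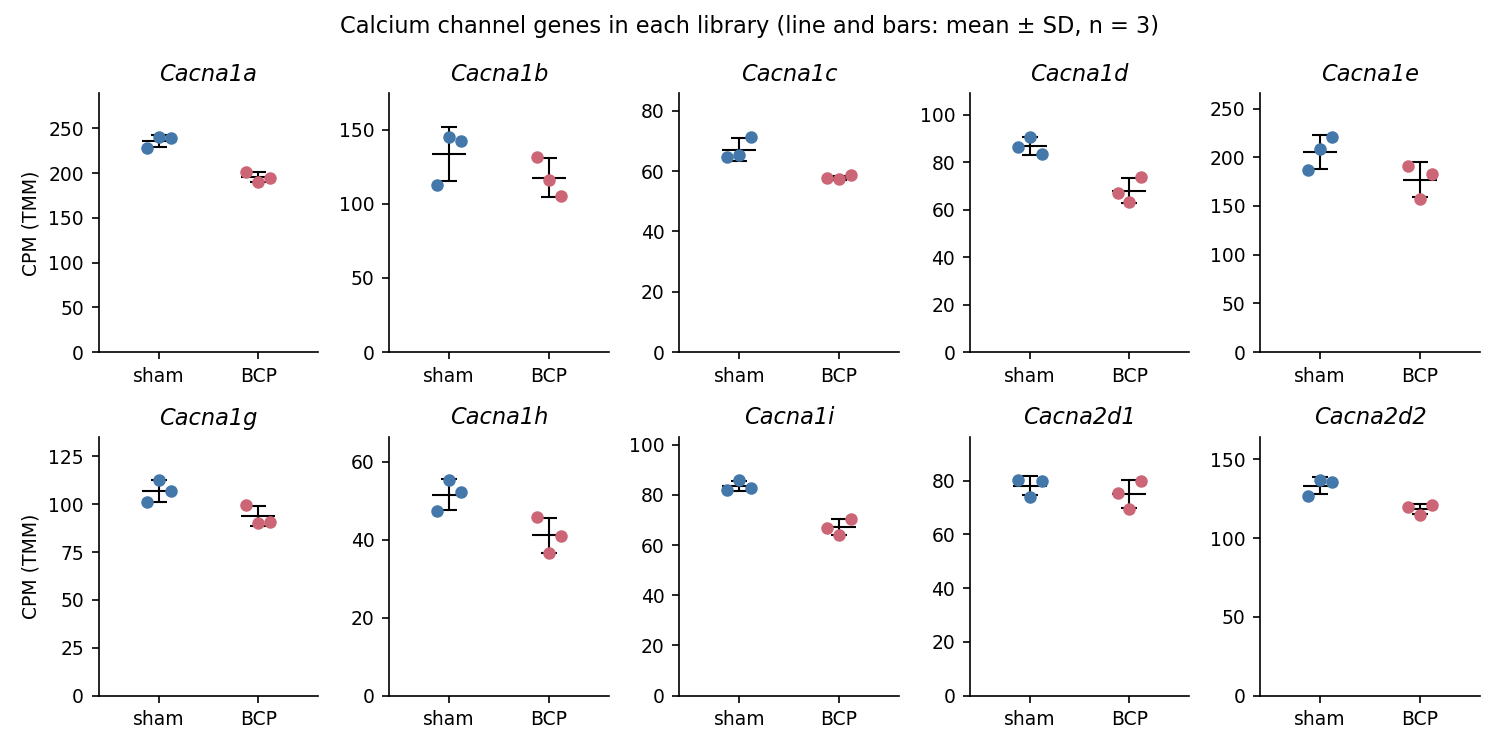
CPM after TMM normalization (vertical axes, from 0) of each channel gene in the 3 sham libraries (blue) and the 3 BCP libraries (red), with the mean and SD as a line and bars (n = 3). The groups do not overlap for 7 genes on this scale and overlap for Cacna1b, Cacna1e and Cacna2d1; scaling to the neuron markers leaves no gene past the threshold.

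Among the Cav2 genes, which encode the presynaptic channels that trigger transmitter release, Cacna1a (chromosome 19, 25526751 to 25749550, Rnor_6.0) had 229, 241 and 239 CPM in the sham libraries, against 201, 190 and 195 CPM in the BCP libraries. The groups did not overlap, with the lowest sham library above the highest BCP library. Cacna1a fell by 17.3% (log2FC -0.27, standard error 0.05, adjusted p = 0.000103 by edgeR's quasi-likelihood test), the smallest p-value among the channel genes, and it passed in each of the 6 fits that left out 1 library.

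Cacna1b (chromosome 3, 1740024 to 1924827), the N-type gene and target of ziconotide, had 112, 145 and 142 CPM in the sham libraries, against 131, 116 and 105 CPM in the BCP libraries. Sham library 1 lay within the range of the BCP libraries, so the groups overlapped. Its log2FC of -0.18 had a standard error of 0.13, the largest of the 10 genes, and an adjusted p of 0.39 (edgeR's quasi-likelihood test), with a 95% interval from -0.52 to 0.15. That interval corresponds to a change between -30.2% and 11.0%. Without sham library 1 the log2FC was -0.29 with an adjusted p of 0.0124 by the same test. Cacna1b passed only in this 1 of the 6 fits that left out 1 library. In the others its adjusted p lay between 0.228 and 0.653 (edgeR's quasi-likelihood test).

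Cacna1e (chromosome 13, 71906702 to 72367980), the R-type gene, had 187, 209 and 221 CPM in the sham libraries, against 191, 157 and 183 CPM in the BCP libraries. Again sham library 1 was the lowest of its group and lay below BCP library 1, so the groups overlapped. The log2FC was -0.22 (standard error 0.08, adjusted p = 0.0975 by edgeR's quasi-likelihood test), and DESeq2 gave an adjusted p of 0.0258. Without sham library 1 the edgeR fit gave a log2FC of -0.28 and an adjusted p of 0.0149. This was the only 1 of the 6 fits without 1 library in which Cacna1e passed. Its adjusted p in the others lay between 0.0605 and 0.269 (edgeR's quasi-likelihood test).

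The Cav1 genes encode L-type channels, which lie mainly on cell bodies and dendrites, couple activity to transcription and, in the case of Cacna1c, also work in vascular smooth muscle. Cacna1d (chromosome 16, 6112150 to 6405117) had 86.3, 90.8 and 83.5 CPM in the sham libraries, against 67.2, 63.2 and 73.8 CPM in the BCP libraries. All BCP libraries lay below all sham libraries, and the drop of 21.6% was the largest among the channel genes (log2FC -0.35, standard error 0.06, adjusted p = 0.000289 by edgeR's quasi-likelihood test). It was below the threshold in all 6 fits without 1 library. Cacna1c (chromosome 4, 150641066 to 150829913) had 64.5, 65.4 and 71.4 CPM in the sham libraries, against 57.6, 57.3 and 58.6 CPM in the BCP libraries, again without overlap. It fell by 13.8% (log2FC -0.21, adjusted p = 0.0157 by the same test) and passed in 4 of the 6 fits, with an adjusted p of 0.103 without sham library 3 and 0.058 without BCP library 2.

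The Cav3 genes encode T-type channels, which open at low voltage and support burst firing. Cacna1i (chromosome 7, 121511097 to 121619194) had 82.1, 85.9 and 82.6 CPM in the sham libraries, against 66.6, 64.1 and 70.6 CPM in the BCP libraries. The gap between the groups exceeded the range within either, and Cacna1i fell by 19.7% (log2FC -0.32, standard error 0.06, adjusted p = 0.000363 by edgeR's quasi-likelihood test), in all 6 fits. Cacna1h (chromosome 10, 14730941 to 14788617), the T-type gene best known from nociceptors, had 47.3, 55.2 and 52.1 CPM in the sham libraries, against 45.7, 36.7 and 40.8 CPM in the BCP libraries. The highest BCP library came close to the lowest sham library, and the log2FC was -0.33 (standard error 0.09), with an adjusted p of 0.00614 by the same test, or -0.25 with an adjusted p of 0.0518 without BCP library 2. Cacna1g (chromosome 10, 82129506 to 82197848) had 101, 113 and 107 CPM in the sham libraries, against 99.8, 90.4 and 90.9 CPM in the BCP libraries. Sham library 1 and BCP library 1 nearly met, and its fall of 12.3% (log2FC -0.19, adjusted p = 0.019 by edgeR's quasi-likelihood test) passed in 3 of the 6 fits, with 0.0988, 0.0932 and 0.0794 without sham library 2, BCP library 2 and BCP library 3.

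Cacna2d1 (chromosome 4, 15710417 to 16130848) encodes α2δ-1, through which gabapentin and pregabalin act and which is known to rise in sensory neurons and dorsal horn after nerve injury. For this and the other channel genes only RNA of the spinal cord was measured, not protein and not dorsal root ganglia. It had 80.2, 74.0 and 79.9 CPM in the sham libraries, against 75.4, 69.5 and 79.8 CPM in the BCP libraries. The groups overlapped, and BCP library 3 was level with the 2 higher sham libraries. The log2FC was -0.06 (standard error 0.06, adjusted p = 0.544 by edgeR's quasi-likelihood test), and the 95% interval from -0.19 to 0.07 corresponds to a change between -12.4% and 5.21%. Neither a rise nor a fall of Cacna2d1 passed the threshold in any of the 6 fits without 1 library, where the log2FC lay between -0.11 and -0.004, or under any other setting, although its sign turned to 0.15 with scaling to the neuron markers (adjusted p = 0.139).

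Cacna2d2 (chromosome 8, 116154736 to 116284985), which encodes the other gabapentinoid-binding subunit, had 127, 137 and 136 CPM in the sham libraries, against 120, 115 and 121 CPM in the BCP libraries. These did not overlap, and Cacna2d2 fell by 11.1% (log2FC -0.17, standard error 0.05) with an adjusted p of 0.0169 by that test. It passed in 3 of 6 fits, with adjusted p of 0.0627, 0.0666 and 0.0973 without sham library 2, sham library 3 and BCP library 2, and its sign turned to 0.04 with scaling to the neuron markers.

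That 1 α2δ gene passed and the other did not was tested as a difference of its own. The log2 ratio of the FPKM of Cacna2d1 to Cacna2d2 was -0.55, -0.77 and -0.65 in the sham libraries, against -0.55, -0.61 and -0.48 in the BCP libraries. Sham library 1 lay inside the BCP range, and the difference of 0.11 had p = 0.3 (exact permutation test, two-sided), where 3 against 3 libraries cannot go below 0.1. Against the sum of the 8 α1 genes, a ratio chosen after the values were seen, Cacna2d1 was at -2.51, -2.76 and -2.64 in the sham libraries, against -2.51, -2.48 and -2.36 in the BCP libraries, with a difference of 0.19 (exact permutation test, two-sided, p = 0.2). Over the 5 ratios and shares compared the adjusted values of these tests were 0.5.

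The shares of the subfamilies in the α1 sum were compared within libraries. Cav2 genes took 57.6% ± 1.03 of the summed α1 FPKM in the sham libraries, against 58.3% ± 0.783 in the BCP libraries, Cav3 genes 28.1% ± 0.714 and 27.7% ± 0.0736, and Cav1 genes 14.3% ± 0.502 and 14.0% ± 0.723 (SD, n = 3). The differences of 0.65, -0.34 and -0.31 percentage points were smaller than the larger of the SDs of the groups, although that of Cav3 exceeded the SD of the BCP libraries (exact permutation tests, two-sided, p = 0.4, 0.4 and 0.6). Cacna1a alone held 25.4% ± 0.658 of the α1 sum in the sham libraries, against 24.9% ± 0.628 in the BCP libraries, Cacna1e 21.1% ± 0.883 and 21.6% ± 1.17, and Cacna1d, the gene with the largest fall, 7.19% ± 0.451 and 6.69% ± 0.485 (SD, n = 3).

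**Figure D3:**
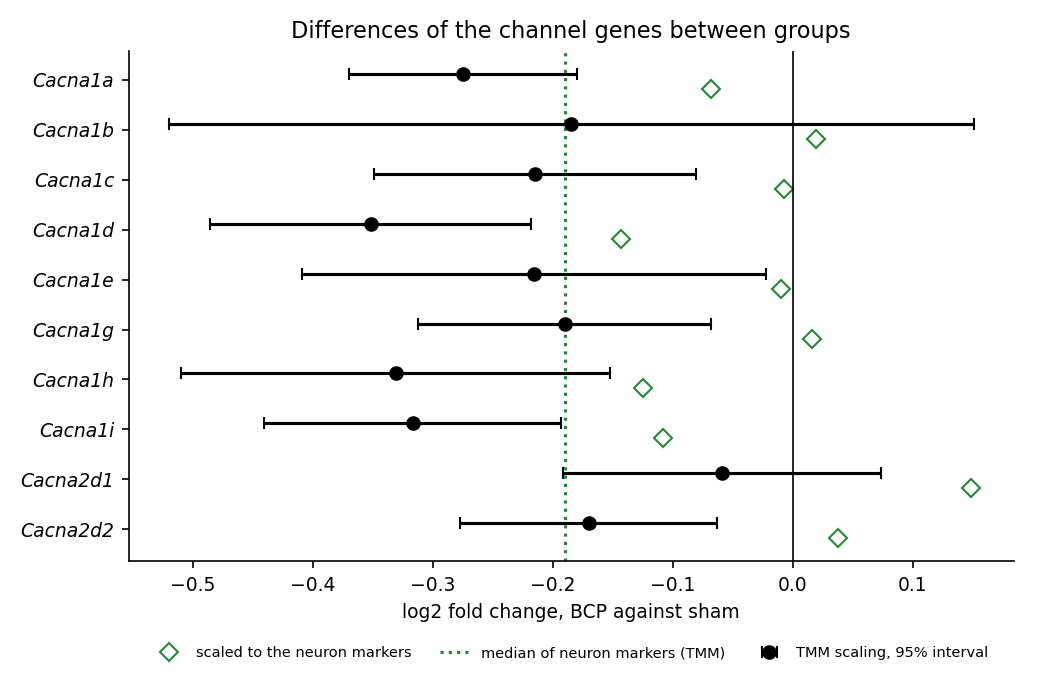
Log2 fold change of BCP against sham (horizontal axis) for each channel gene with TMM normalization (black points, bars for the 95% interval) and with scaling to the summed neuron markers (green diamonds), and the median of the neuron markers with TMM normalization (dotted line, -0.19). With TMM normalization the 10 points lie below 0 and the intervals of Cacna1b and Cacna2d1 cross it, whereas with scaling to the neuron markers 4 genes lie above 0 and no gene passed the threshold.

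The channel genes were set beside a list of 15 neuron markers, with a median log2FC of -0.19. Of these markers 11 fell and none rose, where 12.1% of all tested genes were lower and 15.8% higher. The fallers included Rbfox3, a nuclear protein of mature neurons (log2FC -0.34), and the neurofilament gene Nefm (log2FC -0.31), and the 4 that did not pass were Elavl4 (log2FC 0.06), the glutamate transporter gene Slc17a6 of excitatory neurons (log2FC 0.02) and Gad1 and Gad2, which make GABA (log2FC -0.09 and -0.04). The transporter genes of inhibitory neurons, Slc32a1 and Slc6a5, fell (log2FC -0.32 and -0.16). The summed CPM of the list was 10396 to 10654 in the sham libraries, against 8744 to 9599 in the BCP libraries, without overlap. For the 10 channel genes the sums were 1116, 1215 and 1215 CPM in the sham libraries, against 1056, 959 and 1018 CPM in the BCP libraries, also without overlap (exact permutation test, two-sided, p = 0.1, the smallest possible). As a share of the neuron sum, the channel genes made up 10.7%, 11.4% and 11.7% in the sham libraries, against 11.0%, 10.7% and 11.6% in the BCP libraries, which overlapped (exact permutation test, two-sided, p = 0.7).

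When the counts were scaled to the sum of the neuron markers, none of the 10 channel genes passed the threshold, the smallest adjusted p being 0.139 with edgeR's quasi-likelihood test, and none had an unadjusted p under 0.05. Their median log2FC was then -0.01, with 4 genes above 0 and 6 below. This scaling moved the median of all tested genes to 0.19, so that the channel genes stood 0.20 below the median of all genes with either scaling. Nefl, Nefm and Map2 made up 70.0% of the neuron sum. With the geometric mean of the markers in place of their sum, a setting added after the values were seen, no channel gene passed either. The median was -0.04, and by the adjusted threshold 1.66% of all genes were lower and 30.8% higher. One channel gene, Cacna1d, had an unadjusted p under 0.05 (adjusted p = 0.0878 by edgeR).

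Other cell types also moved between the groups, where 12.1% of all tested genes were lower and 15.8% higher. The 9 oligodendrocyte genes all fell, with a median log2FC of -0.37 and a summed CPM of 39801 to 45212 in the sham libraries, against 28706 to 31943 in the BCP libraries. Of 11 microglia genes 8 rose, with sums of 279 to 371 CPM and 965 to 1182 CPM, and all 7 T cell genes rose, with sums of 6.08 to 6.64 CPM and 49.0 to 56.1 CPM. Of the 8 astrocyte genes 1 rose, Gfap (log2FC 0.80), and 4 fell. Their sums were 8300 to 8590 CPM in the sham libraries, against 9192 to 11349 CPM in the BCP libraries. In BCP library 1 Aqp4 had 2415 CPM, against 360 and 362 CPM in BCP libraries 2 and 3. Genes of dorsal root ganglion neurons, of which 2 of 5 tested fell, summed to 173 to 194 CPM in the sham libraries, against 134 to 163 CPM in the BCP libraries, mostly Prph, which motor neurons also express, with the defining gene Mrgprd at 0 counts in every library. Trpv1, a channel of nociceptors, fell from 4.90 to 3.03 CPM (log2FC -0.70, adjusted p = 0.0225 by edgeR's quasi-likelihood test). The 6 tested smooth muscle and pericyte genes had 1 riser and none that fell. Of 4 tested motor neuron genes 2 fell, Prph again and Slc5a7, and Chat (log2FC -0.18) and Isl1 (log2FC 0.22) did not pass. The part of these cell types in the levels of the channel genes was not tested. The scaling to neuron markers above shifts all genes by about the same amount and cannot tell fewer neurons from less RNA per neuron.

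**Figure D4:**
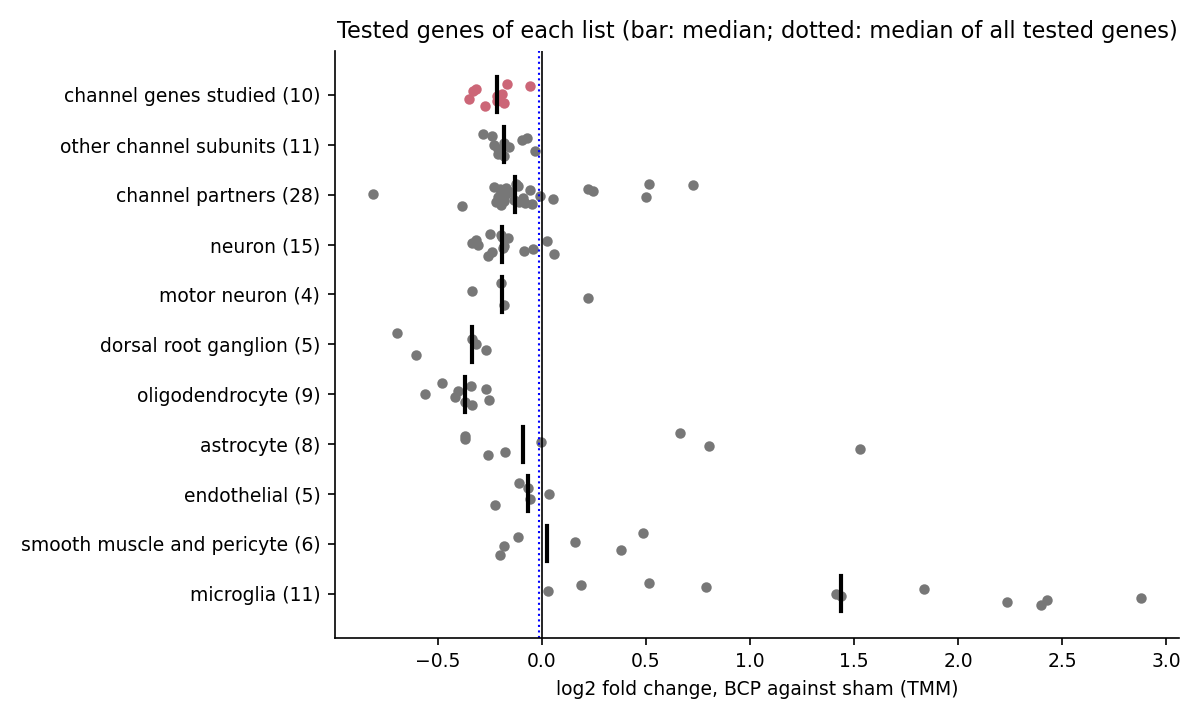
Log2 fold change of BCP against sham with TMM normalization (horizontal axis) for each tested gene (1 point per gene) of the channel genes (red) and of 10 other gene lists (grey), with the number of tested genes in brackets, a bar at each median and a dotted line at the median of all tested genes, -0.01. The channel genes (median -0.22) lie where the neuron markers do (median -0.19), and scaling to those markers would shift all points to the right by about 0.21.

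Of the 16 remaining genes of channel subunits 11 had enough counts to be tested, of which 5 fell and none rose, where 12.1% of all tested genes were lower and 15.8% higher. Their log2FC ran from -0.28 to -0.03, with a median of -0.18. None of the 11 passed in either direction with scaling to the neuron markers. The count was 3 with DESeq2 and 3 without sham library 3, BCP library 1 or BCP library 2, and 2 without BCP library 3. In those fits between 8.14% and 11.6% of all genes were lower. Cacng7 had the highest level of these genes, with 93.1 ± 3.58 FPKM in the sham libraries, against 81.2 ± 2.82 FPKM in the BCP libraries (SD, n = 3). It encodes a γ subunit that, like that of Cacng2 (stargazin), serves mainly as an auxiliary subunit of AMPA-type glutamate receptors. Cacng7 had 189, 196 and 203 CPM in the sham libraries, against 174, 165 and 160 CPM in the BCP libraries, and Cacng2 had 79.5, 85.1 and 82.2 against 70.9, 69.7 and 69.9 CPM. Neither overlapped between groups, and both fell (log2FC -0.24 and -0.23, adjusted p = 0.000902 and 0.00425 by edgeR's quasi-likelihood test). Cacna2d3, the gene of an α2δ subunit to which gabapentin does not bind with high affinity, fell (log2FC -0.18, adjusted p = 0.0134 by the same test), and the β subunit genes Cacnb1 and Cacnb4 fell by 13.6% and 10.3% (adjusted p = 0.0301 and 0.0352). Cacna2d3 had an adjusted p of 0.0782 without BCP library 3. Cacnb1 kept its call only without sham library 1, with 0.0595 to 0.127 in the other fits that left out 1 library, and Cacnb4 only without sham library 2, with 0.055 to 0.211 in the others.

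The α1 genes of retina and skeletal muscle were nearly absent. Cacna1f had between 0 and 5 counts in a library and Cacna1s, the muscle gene, 0 or 1, and Cacna2d4 and Cacng6 had at most 7 and 10. The muscle gene Cacng1 had 0 counts in every library, which allows up to 3 counts in a library by counting error alone.

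Genes of proteins that bind or regulate the channels, or act directly after calcium entry, were examined as a list of 28 tested genes. Of these 7 fell and 2 rose, with a median log2FC of -0.13, where 12.1% of all tested genes were lower and 15.8% higher. With scaling to the neuron markers none of the 28 fell (1 at an unadjusted p under 0.05) and 8 rose, where 35% of all tested genes were higher. Among those that fell with TMM normalization were genes of the active zone of the synapse, where Cav2 channels are anchored. Rims1 had 169, 161 and 165 CPM in the sham libraries, against 143, 150 and 139 CPM in the BCP libraries, and Bzrap1, of a RIM-binding protein, had 99.2, 103 and 111 against 93.6, 76.5 and 71.0 CPM. Neither gene overlapped between the groups (log2FC -0.19 and -0.38, adjusted p = 0.00463 and 0.0149 by edgeR's quasi-likelihood test). Rims2, of another active-zone protein, fell by 9.79% (adjusted p = 0.0388 by the same test). Bzrap1 had an adjusted p of 0.0719 without sham library 2 and 0.0601 without BCP library 2, and Rims2 one of 0.0631 to 0.208 without sham library 3 or any 1 BCP library and 0.0941 with DESeq2. The calmodulin-dependent kinase gene Camk2b fell by 11.8% and the calcium-activated potassium channel gene Kcnma1 by 13.6% (adjusted p = 0.0051 and 0.00588 by the same test).

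The 2 genes that rose encode thrombospondins, secreted matrix proteins that are known to bind α2δ-1. Thbs1 had 3.66, 3.70 and 4.46 CPM in the sham libraries, against 4.99, 7.72 and 6.82 CPM in the BCP libraries, and Thbs2 had 19.8, 18.2 and 14.0 against 22.6, 23.9 and 27.5 CPM. All BCP libraries lay above all sham libraries for both genes (log2FC 0.73 and 0.51, standard error 0.20 and 0.12, adjusted p = 0.0106 and 0.00335 by edgeR's quasi-likelihood test). Without BCP library 2 Thbs2 still passed and Thbs1 did not (adjusted p = 0.0805 by the same test), and both rose with scaling to the neuron markers. Thbs4, the thrombospondin gene most studied in spinal pain models, had a log2FC of -0.13 with a standard error of 0.30 at 2.09 CPM in the sham libraries and did not pass (adjusted p = 0.798). Calm3, one of the calmodulin genes, had the highest level of the list, with 825 ± 29.4 FPKM in the sham libraries, against 787 ± 53.1 FPKM in the BCP libraries (SD, n = 3), and did not pass (adjusted p = 0.115).

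The libraries of the groups were also compared by overlap. For 7 of the 10 channel genes all BCP libraries lay below all sham libraries and for none above, where 19.8% of all tested genes lay below and 21.7% above. These were the 7 genes that passed the test.

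The genes whose pattern over the 6 libraries was most like that of Cacna2d1 were sought among tested genes outside the lists, by the root-mean-square difference of log2 CPM centred on the mean of each gene. They were Slain2 (0.0218), Cdk17 (0.0226), Camk2d (0.0238), Parvb (0.0240) and Ganc (0.0256). Like Cacna2d1 these genes differed little between the groups (log2FC -0.09 to -0.03, adjusted p = 0.419 to 0.702 by edgeR's quasi-likelihood test). The measure favours genes that vary little when the reference does, so joint regulation cannot be read from it. The nearest channel gene was Cacna2d2, at 0.0917, with 1969 tested genes closer to Cacna2d1 than it was. The remaining channel genes were at 0.103 to 0.200.

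In the separate table of long noncoding RNAs, 32 transcripts of 22783 overlapped the span of a channel gene on either strand, 28 of them lying wholly inside it, and 20 had enough counts to be tested. Cacna1a held 10 of them, Cacna1g 6, Cacna1d and Cacna2d1 4 each and Cacna1i none. None of the 20 passed the threshold with edgeR's quasi-likelihood test over 12157 transcripts, of which 0.395% were lower and 1.57% higher, none had an unadjusted p under 0.05, and DESeq2 gave none in either count. The smallest unadjusted p was 0.178, for NONRATT014132.2 (chromosome 19, 25723613 to 25724341, inside Cacna1a). This transcript had 29, 33 and 55 counts in the sham libraries, against 32, 24 and 17 in the BCP libraries, which overlapped (log2FC -0.51, standard error 0.34, adjusted p = 0.601). NONRATT014133.2, beside it in Cacna1a, had 22, 20 and 25 counts in the sham libraries, against 21, 23 and 34 in the BCP libraries, and NONRATT008830.2 in Cacna1e had 31, 34 and 24 against 17, 24 and 24 counts. Their log2FC were 0.36 and -0.32 (standard error 0.28 for both, adjusted p = 0.659 and 0.704 by the same test). Scaled to the library, the groups of NONRATT014133.2 did not overlap and those of NONRATT008830.2 did. NONRATT014133.2 had 10.3, 8.73 and 10.3 CPM in the sham libraries, against 10.9, 10.6 and 16.2 CPM in the BCP libraries. The share of all transcripts without overlap was not counted. With so few counts per transcript, differences of the size seen in the channel genes were not detectable in these transcripts. The lncRNA table gives no strand, so reads of a channel gene and of a transcript within it may have been counted for both. Of other genes in the gene table, a small nucleolar RNA and Tpsg1 overlapped Cacna1d and Cacna1h, both at 0 counts in every library.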

How the data were processed

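RNA of 6 libraries (3 sham, 3 BCP, day 14) was sequenced by the authors. Per the labels and methods, reads were filtered with Seqtk, mapped to Rnor_6.0 with HISAT2 2.0.4 and quantified with StringTie 1.3.0. The authors deposited raw counts and FPKM per gene and per lncRNA; the program that made the counts and its use of strand are not given in the sources used here. For the channel genes the deposited FPKM equalled the count divided by the library total and a whole exon length.

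The test was that of edgeR 4.0.16 (R 4.3.3): filterByExpr, TMM normalization, robust quasi-likelihood fit on the group, Benjamini-Hochberg adjustment over the whole table. Genes and lncRNAs were fitted separately. The standard error was |log2FC| divided by the square root of F, and 95% intervals used the fit's degrees of freedom. Alternatives were DESeq2 1.42.0, other scalings and filters, the replicate number as a block, and each library left out. The code was tested on simulated data. Libraries of the same replicate number shared no deviations over all genes (correlations -0.11, 0.04 and -0.04). With 3 libraries per group this cannot exclude a pairing. Members, gene lists and tests were chosen with earlier results of these data known. Named were all 10 channel genes, of the other lists up to 8 genes with an adjusted p under 0.05 and the gene with the highest level, the 3 lncRNAs with the smallest p, and 5 genes most like Cacna2d1. One gene that this rule names is not reported here. Further named genes (untested subunits, Thbs4, markers) were chosen after their values were seen. Figures were drawn with matplotlib 3.10.9.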

Additional observations from a re-analysis of the deposited data

How the results depend on the processing

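The number of channel genes that fell, 7 with TMM normalization, changed with the scaling and with the library left out. It was 4 with library size only and 0 with scaling to the sum or to the geometric mean of the neuron markers (the latter added after the data were seen). Among all genes 12.1% were lower with TMM normalization, 8.43% with library size only, 1.13% with the neuron sum and 1.66% with the geometric mean. Scaling to the sum turned the sign of Cacna1b (log2FC 0.0194), Cacna1g (0.0161), Cacna2d1 (0.148) and Cacna2d2 (0.0376), and the geometric mean that of Cacna2d1 (0.12) and Cacna2d2 (0.00968). The median log2FC was -0.00875 and -0.0357 with these scalings. Of all calls, 56.6% were higher in BCP with TMM normalization, 68.0% with library size only, 96.9% with the neuron sum and 94.9% with the geometric mean. Fits without 1 library gave 3 (without BCP library 2, 8.14% of all genes lower) to 9 (without sham library 1, 10.3% lower) channel genes that fell. The medians in these fits ran from -0.29 to -0.18. Cacna1a, Cacna1d and Cacna1i passed in all 6 of these fits and Cacna2d1 in none.

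Of other subunits 5 fell, 3 with DESeq2, 2 with library size only, 0 with either neuron scaling and 2 to 4 without 1 library. Among all genes 8.19% were lower with DESeq2 and 8.14% to 11.6% without 1 library. Of channel partners 7 fell and 2 rose, 11 fell with upper-quartile normalization, none fell and 8 rose with the neuron sum, 1 fell and 6 rose with the geometric mean, and 1 to 3 rose without 1 library. With upper-quartile normalization 16.1% of all genes were lower, and 35% and 30.8% were higher with the neuron sum and the geometric mean. The difference of the Cav1 share lay between -0.614 and 0.0893 percentage points without 1 library. Why the calls moved was not tested. The replicate number as a block left 7 channel genes lower and changed no call of them, with 10.7% of all genes lower. Of the other named genes it raised the adjusted p of Cacnb1 (0.0528 by edgeR) and Rims2 (0.0594) above 0.05. The numbers come from sample names alone, the correlations of same-numbered libraries were between -0.11 and 0.04, and 1 of 3 libraries correlated best with its own number. None of the lncRNAs tested over channel genes passed under any setting run. Low counts limit the lncRNA values.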
